A study of Mus musculus with 16 samples.

Results

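A set of 7 genes encoding receptors and ligands was examined, through which B cells receive survival signals and exchange costimulatory signals with T cells: *Cd40*, *Tnfrsf13b*, *Tnfrsf13c*, *Cd80*, *Cd83*, *Cd86* and *Icosl*. The genes are given by name, by a rule that uses no measured value, though they were chosen with earlier results of these data known. They make up 7 of the 21938 protein-coding genes annotated on the chromosomes of mm10 (GENCODE vM21). CpG methylation was measured by whole genome bisulphite sequencing (WGBS) in 16 libraries, 8 from B cells and 8 from T cells of the spleens of C57BL/6J mice of 6 to 8 weeks of age. The labels name no treatment and no genetic change. B cells were the resting cells left after depletion with CD43, and T cells were naive CD4+CD62L+ cells, both isolated on magnetic columns. Each cell type had 4 female and 4 male libraries, of which 2 per sex were standard bisulphite (BS) and 2 were oxidative bisulphite (oxBS) libraries. BS reads 5-methylcytosine and 5-hydroxymethylcytosine alike as methylated, whereas after oxidation only 5-methylcytosine is read as methylated. The labels describe pooled mice and name no animal. Per the extraction protocol BS and oxBS libraries were made from divided samples, but the labels do not say which libraries share a sample, so p-values treat libraries as independent when they may not be.

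CD40 is the receptor through which helper T cells, carrying CD40 ligand, activate B cells. *Tnfrsf13c* encodes the BAFF receptor, on which the survival of mature B cells depends, and *Tnfrsf13b* encodes TACI, which binds both BAFF and the related cytokine APRIL. CD80 and CD86 are the B7 ligands that engage CD28 and CTLA-4 on T cells, ICOS ligand engages ICOS, and CD83 is a surface protein of activated B cells and dendritic cells. In mammals, CpG-rich promoters are mostly free of methylation in all cell types, while CpG-poor promoters and distal regulatory elements more often differ between cell types.

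For each gene, methylated and unmethylated calls were pooled over the promoter (1 kb either side of the 5′ end of the gene record) and over 500 bp tiles from 5 kb upstream of that start to the gene end. Tiles are named here by the distance of their first base from the start, in the direction of the gene. All such windows of every protein-coding gene were compared between the cell types by quasi-binomial logistic regression, in which sex and assay were further terms. A window was called at a Benjamini-Hochberg adjusted p under 0.05 together with a difference of pooled levels of at least 20 percentage points. Adjusted p-values below come from this model unless another test is named. Exact permutation p-values given for promoters are unadjusted.

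B cell libraries held 123693203 to 171130063 calls and T cell libraries 154857425 to 170135949, with genome-wide levels of 79.5 to 81.5% and 78.5 to 79.7%. The 7 promoters had between 165 and 950 calls per library, and the 305 tiles tested had a median of 49.5. All 6 promoters of B cell markers were called lower in B cells (mean levels 10.9 to 28.3% in B cells and 41.7 to 94.2% in T cells), and 7 of the 8 promoters of T cell markers were called higher in B cells, the exception being *Thy1* with a difference of 8.80 points. None of the 5 myeloid marker promoters was called, but that of *Lyz2* was at 46.6% ± 5.77 in B cells and 65.0% ± 3.36 in T cells (-18.0 points, adjusted p = 0.000405) without overlap, and 9 of 202 tiles of the myeloid markers were called lower and 7 higher in B cells. Among the 4 NK and CD8 T cell markers, *Cd8a* and *Cd8b1* were called with lower levels in T cells (60.5% ± 5.05 and 34.9% ± 7.36, against 86.7% ± 1.55 and 90.3% ± 2.001 in B cells, SD, n = 8). Their part in the results below was not tested.

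B cell libraries of one sex and assay differed from each other at these genes. Over 16 tiles of the 7 genes that were called lower in B cells and informative in every library, the mean level was 40.2% in female BS library 10 and 34.6% in library 12, and 43.1 and 34.6% in female oxBS libraries 9 and 11. It was 43.4 and 29.4% in male BS libraries 1 and 4, and 41.8 and 31.8% in male oxBS libraries 2 and 3. The same library of each pair was the lower one over 12806 tiles of other genes called lower in B cells, where libraries 10, 9, 1 and 2 had 43.8, 43.9, 43.7 and 44.3% and libraries 12, 11, 4 and 3 had 38.6, 38.4, 38.6 and 38.7%. It was also the lower one over the 6 B cell marker promoters, which averaged 11.8 to 21.6% in B cell libraries. The same held over 22933 tiles of other genes called higher in B cells. There libraries 10, 9, 1 and 2 had 80.1, 80.2, 80.2 and 80.3% and libraries 12, 11, 4 and 3 had 78.1, 77.9, 78.1 and 78.3%. The genome-wide level was also lower in libraries 12, 11 and 4 of their pairs but not in library 3, and total calls were lower in libraries 12 and 11 but not in 4 or 3. T cell libraries lay between 75.6 and 79.3% over the 16 tiles, above every B cell library. That separation is largely set by choosing tiles called lower in B cells over these same libraries. A BS and an oxBS library of the same sex and consecutive numbers (9 and 10, 11 and 12, 1 and 2, 3 and 4) were either both the higher or both the lower of their pairs. If consecutive libraries came from 1 divided sample, each cell type would have 4 independent samples and not 8, and the p-values over 8 against 8 libraries would be too small. The labels do not say so, and results with BS or with oxBS libraries alone, where a divided sample enters once, are given with the alternatives. The part of these library differences in the size of each B and T cell difference was not tested. Both male BS libraries of B cells (1 and 4) also listed 242 and 243 positions outside the chromosomes against 16429 to 17017 in the others, and results without them are given with the alternatives.

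Sequences from 3 regions with called differences are shown first, with 1 for contrast. They are given 5′ to 3′ in the direction of the gene, in lower case with CpGs in capitals, from mm10 (GRCm38). The first is the region about 4 kb upstream of *Tnfrsf13b* (chr11:61122789-61123088), the second the stretch directly before the *Tnfrsf13b* start (chr11:61126505-61126754), the third lies in an intron of *Cd80* (chr16:38461760-38462059), and the last precedes the RefSeq start of *Tnfrsf13c* on the minus strand (chr15:82224381-82224630), where both cell types were unmethylated.
Tnfrsf13b distal: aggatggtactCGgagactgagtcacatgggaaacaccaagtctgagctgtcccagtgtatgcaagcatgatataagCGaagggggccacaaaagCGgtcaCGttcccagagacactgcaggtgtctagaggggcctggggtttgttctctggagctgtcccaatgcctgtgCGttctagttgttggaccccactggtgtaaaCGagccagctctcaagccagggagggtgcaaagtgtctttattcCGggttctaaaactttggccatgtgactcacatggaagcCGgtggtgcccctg
Tnfrsf13b start: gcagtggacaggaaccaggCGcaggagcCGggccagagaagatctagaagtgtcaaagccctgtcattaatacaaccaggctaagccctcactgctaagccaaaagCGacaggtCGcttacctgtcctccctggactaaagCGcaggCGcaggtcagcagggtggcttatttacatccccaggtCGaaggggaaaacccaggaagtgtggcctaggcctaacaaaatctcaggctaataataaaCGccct
Cd80 intron: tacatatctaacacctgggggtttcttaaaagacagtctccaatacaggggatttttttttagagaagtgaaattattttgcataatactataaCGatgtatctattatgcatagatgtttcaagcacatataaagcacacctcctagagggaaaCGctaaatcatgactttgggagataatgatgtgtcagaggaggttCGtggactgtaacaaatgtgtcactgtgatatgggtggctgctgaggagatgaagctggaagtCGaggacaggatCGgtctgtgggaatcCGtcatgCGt
Tnfrsf13c start: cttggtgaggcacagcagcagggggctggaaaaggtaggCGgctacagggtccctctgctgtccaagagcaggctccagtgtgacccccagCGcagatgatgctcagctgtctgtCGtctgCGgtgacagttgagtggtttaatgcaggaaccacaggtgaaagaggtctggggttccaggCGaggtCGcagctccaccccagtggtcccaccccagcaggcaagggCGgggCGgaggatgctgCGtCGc
The first holds 8 CpGs in 300 bp, with pooled B cell levels of 1.19 to 23.1% and T cell levels of 93.1 to 98.9% per CpG (78 to 90 and 90 to 107 calls). The second holds 8 CpGs in 250 bp, at 10.2 to 96.9% in B cells and 60 to 98.9% in T cells. The third holds 7 CpGs in 300 bp, at 0 to 52.5% and 85.2 to 97.6%. The fourth holds 10 CpGs in 250 bp, none above 1.23% in B cells or 7.08% in T cells. The ratios of observed to expected CpGs of these 250 bp stretches were 0.439 in *Tnfrsf13b* and 0.410 in *Tnfrsf13c*, while the promoter windows hold 40 and 56 CpGs.

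One of the 7 promoters, that of *Tnfrsf13b*, was called, with lower methylation in B cells. Among all 20904 promoters tested, 0.407% were called lower and 0.694% higher in B cells. Without the limit on the difference, 4 of the 7 had an adjusted p under 0.05, against 10.0% of all promoters. These were *Tnfrsf13b*, *Cd40* and *Tnfrsf13c* with lower and *Cd86* with higher levels in B cells. The median difference over the 7 promoters was -1.52 points, and over all promoters 0.52 points.

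**Figure D1:**
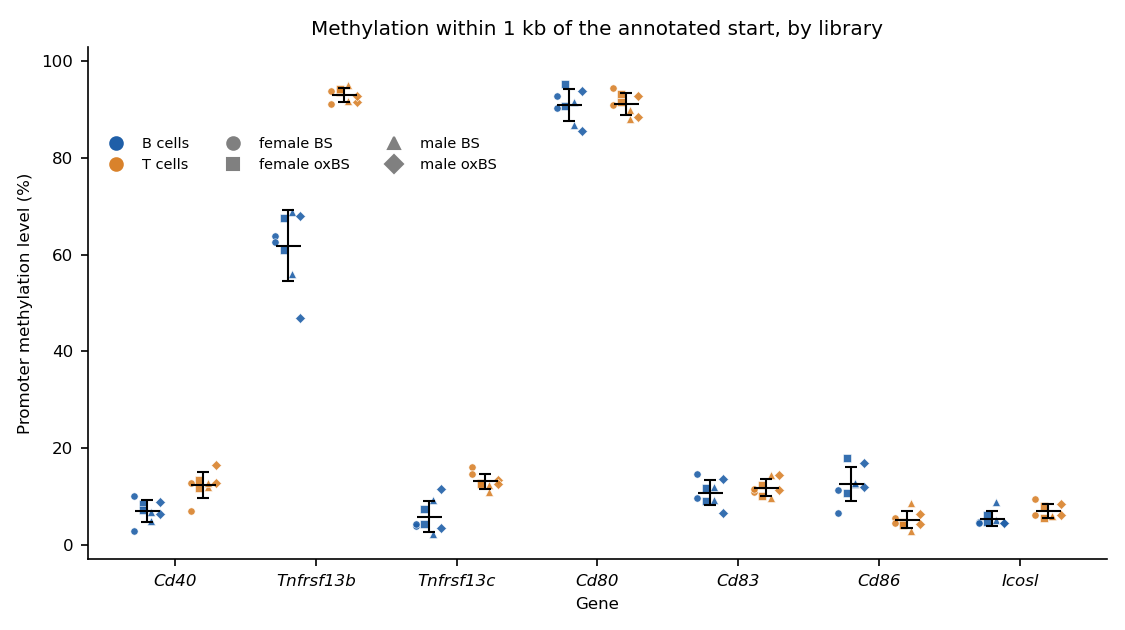
Promoter methylation level in percent of calls (y axis) of the 7 genes (x axis) in each of the 16 libraries. Blue points are B cell and orange points T cell libraries, marker shapes give sex and assay, and black bars the mean and SD of 8 libraries. At *Tnfrsf13b* the B cell libraries reach at most 68.8% and the T cell libraries are at 91.3% or more, while libraries lie between 2.27 and 17.9% at the other genes or, for *Cd80*, at 85.7% or more in both cell types.

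In B cells the promoters ran in the order *Icosl*, *Tnfrsf13c*, *Cd40*, *Cd83*, *Cd86*, *Tnfrsf13b* and *Cd80*, from a mean of 5.35 to 90.9%. The ranges of neighbours overlapped up to *Cd86*, and *Tnfrsf13b* and *Cd80* were each separate from their neighbours. In T cells the order was *Cd86*, *Icosl*, *Cd83*, *Cd40*, *Tnfrsf13c*, *Cd80* and *Tnfrsf13b*, from a mean of 5.11 to 93.1%. Neighbours in that order overlapped except for *Icosl* and *Cd83*, and for *Tnfrsf13c* (highest library 16.1%) and *Cd80* (lowest library 88.2%).

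Of the 431 tiles of the 7 genes, 348 held at least 3 CpGs and 305 passed the filter on calls. Of these, 20 were called lower and 4 higher in B cells (6.56 and 1.31%), beside 1.35% lower and 2.54% higher among the 1281394 tiles of all genes. In 18 of the 24 called tiles no B cell library overlapped a T cell library, beside 42467 of the 49799 called tiles of all genes. Of the tiles lower in B cells, 9 of the 20 lay upstream of the start. They include those at -5000, -2500, -2000, -1500 and -1000 of *Tnfrsf13c*, a gene of 2627 bp for which most tiles are upstream. The upstream share of all tested or all called tiles was not counted. The median difference over the tested tiles was -0.29 points, beside 0.49 points over all tiles, and 203 of the 305 tiles were at 80% or more in both cell types. Without the limit on the difference, 46 of the 305 had an adjusted p under 0.05, against 8.22% of all tiles. The median SD between libraries was 4.52 points for B and 4.04 points for T cells, beside 3.62 and 3.78 points over all tiles.

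**Figure D2:**
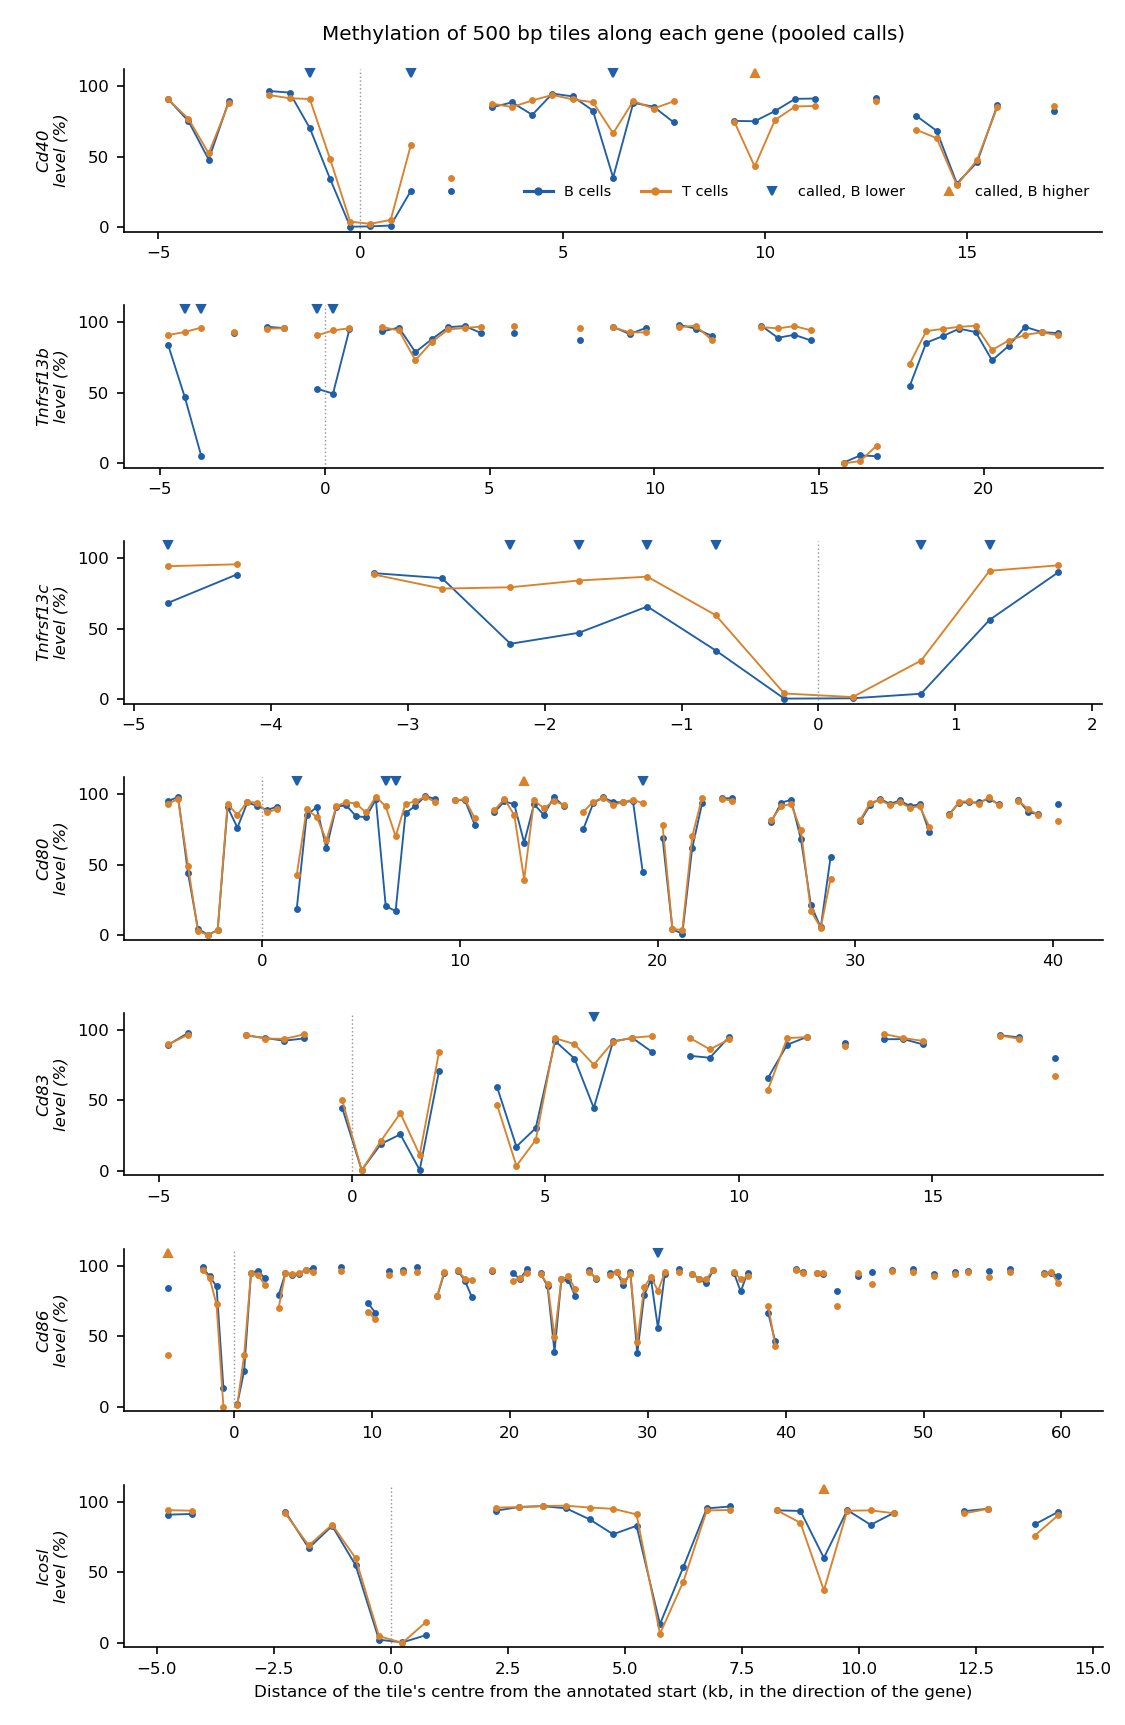
Methylation level in percent (y axis, pooled calls of 8 libraries) of tested 500 bp tiles along each of the 7 genes, by the distance of the tile's centre from the annotated start in kb (x axis). Blue is B cells and orange T cells, lines join adjacent tested tiles, and triangles mark called tiles. The widest gaps are at 4 kb upstream of *Tnfrsf13b* and 6 to 7 kb into *Cd80*, and most other tiles of both cell types lie on each other.

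*Tnfrsf13b* (TACI, chr11:61126755-61149372, plus strand) had the largest promoter difference and the single largest tile difference of the 7 genes. Its promoter ranged from 47.0% through a median of 63.3% to 68.8% in B cells, and from 91.3% through 93.3% to 95.0% in T cells. Every B cell library was below every T cell library, and the B cell libraries were the more spread. The means were 61.9% ± 7.37 and 93.1% ± 1.40 (SD, n = 8 each), a difference of -30.8 points in pooled calls (adjusted p = 2.83e-06, exact two-sided permutation p = 0.000155, the smallest that 8 against 8 libraries can give). The call was lost with a window of 2 kb either side of the start, where the difference was -19.2 points, and with male libraries alone, where it was -32.4 points (adjusted p = 0.0820, 4 against 4 libraries). With BS and with oxBS libraries alone it was -29.6 and -32.0 points (adjusted p = 0.0295 and 0.0351). For comparison, the median SD over all promoters was 2.25 points for B and 2.01 points for T cells, but 55.3% of all promoters were below 20% in B cells. The 3 promoters nearest in level, *Ren1*, *Vmn2r27* and *Slamf7*, were chosen by their levels over these same libraries. They had SDs of 8.68, 7.76 and 8.86 points for B and 0.861, 3.84 and 1.79 points for T cells. Similar SDs are largely set by that choice and do not show the usual spread at that level.

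The tile at -4000 of *Tnfrsf13b* differed most. B cell libraries lay at 0 to 9.86% with a median of 5.85%, and T cell libraries at 93.0 to 98.9% with a median of 96.1%. This near complete contrast of -90.6 points (adjusted p = 1.31e-08) came from 8 CpGs, of which 7 were below 20% in B cells and all 8 above 80% in T cells. The neighbouring tile at -4500 held 10 CpGs, with a mean of 46.1% ± 5.62 for B and 92.9% ± 2.69 for T cells (-45.8 points, adjusted p = 1.65e-07). Within that tile the 3 CpGs nearest the tile at -4000 were at 2.38 to 11.8% in B cells and at 93.2 to 97.7% in T cells, whereas the 7 farther upstream were at 55.2 to 97.8% in B cells. No annotated gene overlapped either tile.

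Around the *Tnfrsf13b* start, the tiles at -500 and 0 formed a second run of called tiles. Over these 1000 bp and 28 CpGs, B cell libraries lay between 32.2 and 59.6% and T cell libraries between 89.8 and 94.8%. The tile at 0, which overlaps an annotated UTR, was at 49.0% ± 8.20 in B cells and 93.8% ± 2.29 in T cells (-44.6 points, adjusted p = 7.90e-07), and all 17 CpGs were lower in B cells. The tile at -500 was at 51.4% ± 12.6 and 90.2% ± 1.86 (-37.5 points, adjusted p = 2.62e-05), with male oxBS library 3 of B cells lowest at 25%. Unlike at -4000, only 1 of these 28 CpGs was below 20% in B cells, the one 6 bp before the start, at 10.2% in B cells against 60% for T cells. The 3 CpGs farthest upstream, at -442 to -403 bp from the start, were at 83.3 to 86.4% in B cells.

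Further inside *Tnfrsf13b*, tiles from 15500 to 16999 were low in both cell types, with pooled levels of 0.627 to 5.67% in B cells and 0 to 12.6% in T cells. The first of them holds the annotated starts of 3 non-coding transcripts of the gene, between 15706 and 15910 bp from its start. A coding transcript is annotated to start at 14080 bp, where the level within 250 bp was 93.8% ± 6.15 in B cells (n = 6) and 95.7% ± 5.30 in T cells (n = 8). Of the 41 tiles of *Tnfrsf13b* tested, 31 were at 80% or more in both cell types. The 3 promoters whose levels over the 16 libraries lay nearest those of *Tnfrsf13b*, among 20423 promoters informative in every library, were those of *Ren1*, *Vmn2r27* and *Slamf7*, at mean absolute differences of 3.91, 4.89 and 5.05 points.

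*Tnfrsf13c* (BAFF receptor, chr15:82221743-82224369, minus strand) had the largest share of called tiles, 7 of 13, all lower in B cells (53.8%, beside 1.35% of all tiles). Its start was unmethylated in both cell types, at 0.52% ± 0.92 in B cells and 0.79% ± 0.44 in T cells within 250 bp. The promoter as a whole was at 2.27 to 11.54% in B cells (median 4.22%) and 10.98 to 16.1% in T cells (median 12.7%), where 1 B cell library (male oxBS library 2) reached into the T cell range. The difference was -7.80 points (adjusted p = 0.00548, exact permutation p = 0.000311), below the limit for a call. It was -2.02 points within 500 bp and -14.5 points within 2 kb of the start.

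Upstream of *Tnfrsf13c*, 4 adjacent tiles from -2500 to -501 were called. Over the whole run of 2000 bp and 20 CpGs, the mean level was 44.96% ± 5.99 for B cells and 74.7% ± 5.07 for T cells, with B cell libraries at 36.1 to 53.9% and T cell libraries at 63.2 to 79.6%. The differences were -39.9 points at -2500, -36.9 at -2000, -21.1 at -1500 and -24.9 at -1000, with adjusted p between 0.00183 and 0.0106. With only the BS, oxBS, male or female libraries, each difference that could be computed stayed negative and none of the 4 tiles had an adjusted p under 0.05. At -2000 it lay between 0.114 (male) and 0.689 (female). At -1000 the difference was -31.4 points with BS (adjusted p = 0.249) and -18.4 points with oxBS (adjusted p = 0.430). Single tiles held only 4 to 7 CpGs, and at -2500 only 5 B cell libraries and 7 T cell libraries had enough calls. With at least 40 calls per library the tile at -1000 had an adjusted p of 0.0504. The tiles at -2000, -1500 and -1000 overlapped between single libraries of the cell types. A further called tile at -5000 (-25.8 points, adjusted p = 0.00022) overlaps the annotated gene *Gm49503*.

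Downstream of the *Tnfrsf13c* start, tiles at 500 and 1000, over coding exons and UTR, were also called. At 500, B cell libraries lay between 0 and 14.3% and T cell libraries between 19.4 and 36.2% (-23.5 points, adjusted p = 0.000386). At 1000, they lay between 38.2 and 72.4% and between 86.7 and 95.8% (-34.7 points, adjusted p = 2.09e-05). At 500, 13 of the 14 CpGs were below 20% in B cells. Several of them were also below 20% in T cells, where single CpGs ran from 0 to 92.6% and 1 was above 80%.

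*Cd40* (chr2:165055627-165072948, plus strand) had an unmethylated start in both cell types, at 0.55% ± 0.67 in B cells and 1.54% ± 1.13 in T cells within 250 bp. The promoter ran from 2.88% through 7.03% to 10.1% in B cells and from 6.89% through 12.7% to 16.4% in T cells. The ranges overlapped, and the means of 6.93% ± 2.27 and 12.4% ± 2.64 differed by -5.47 points (adjusted p = 0.0117, exact permutation p = 0.000932), which is under the limit for a call. The difference was -2.51 points within 500 bp of the start. Of its 35 tested tiles, 3 were called lower and 1 higher in B cells (8.57 and 2.86%, beside 1.35 and 2.54% of all tiles).

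The called tiles of *Cd40* with the largest difference in each direction lay at 1000 and at 9500. At 1000, in a tile with a coding exon, B cells had 11.4 to 37.6% (median 26.6%) and T cells 50 to 64.7% (median 58.2%), a difference of -32.3 points (adjusted p = 7.47e-05). In the intron at 6000, B cells had 33.8% ± 8.76 and T cells 66.4% ± 4.61 (-31.3 points, adjusted p = 4.54e-05), with 5 of 10 CpGs below 20% in B cells. The tile at -1500 was at 69.2% ± 13.3 and 90.9% ± 2.17 (-20.5 points, adjusted p = 0.00698), close to the limit. In the opposite direction, the intronic tile at 9500 was at 69.2 to 86.2% in B cells and 30.3 to 52.2% in T cells (32.0 points, adjusted p = 9.46e-05). The adjusted p of the tile at 9500 was 0.0946 with BS, 0.0609 with oxBS, 0.0563 with male and 0.140 with female libraries alone. The groups did not overlap in any of these tiles.

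*Cd80* (B7-1, chr16:38455561-38496335, plus strand) was methylated at its annotated start. The promoter ran from 85.7% through 91.2% to 95.2% in B cells and from 88.2% through 91.4% to 94.5% in T cells, with full overlap (-0.53 points, adjusted p = 0.891, exact permutation p = 0.818). A second start, 3372 bp into the gene and used by RefSeq, was at 64.7% ± 6.46 in B cells and 75.4% ± 11.1 in T cells within 250 bp, over 5 CpGs. Neither start lay in a region free of methylation.

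Inside *Cd80*, introns held the largest differences after the *Tnfrsf13b* tile at -4000. At 6000, B cell libraries lay between 13.2 and 32.6% (median 18.7%) and T cell libraries between 80.5 and 100% (median 90.5%), a difference of -70.4 points (adjusted p = 2.67e-07). At 6500, they lay between 9.76 and 27.7% and between 62.9 and 74.0% (-52.7 points, adjusted p = 2.60e-07). The run of both tiles spanned 1000 bp and 16 CpGs, all lower in B cells. Further intronic tiles were lower in B cells, that at 19000 (44.6% ± 9.84 and 93.0% ± 5.04) and that at 1500 (18.7% ± 4.43 and 42.4% ± 7.95), with adjusted p of 1.38e-05 and 0.000596. The tile at 13000 went the other way, with 66.1% ± 5.67 in B cells and 39.0% ± 10.6 in T cells (26.1 points, adjusted p = 0.00108). The adjusted p of the tile at 13000 was 0.161 with BS, 0.216 with oxBS, 0.351 with male and 0.122 with female libraries alone. None of these 5 tiles overlapped between the cell types.

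Other tiles of *Cd80* were low in B and T cells alike. Those from -3500 to -2001, which overlap *Adprh* or *D930030I03Rik*, had pooled levels of 0.355 to 4.70% in B cells and 0.115 to 3.78% in T cells. The intronic tiles at 20500 and 21000 had 1.14 to 4.16% and 3.70 to 4.52%, and that at 28000 had 5.53 and 5.32%. In these tiles the adjusted p lay above 0.05, between 0.0618 and 0.954.

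*Cd86* (B7-2, chr16:36603869-36666081, minus strand) was the only one of the 7 promoters with an adjusted p under 0.05 and more methylation in B cells. B cell libraries ran from 6.57% through 12.3% to 17.9% and T cell libraries from 2.91% through 4.55% to 8.60%. The means of 12.6% ± 3.54 and 5.11% ± 1.75 differed by 7.44 points (adjusted p = 0.00244, exact permutation p = 0.000311), under the limit for a call, and the ranges overlapped. Within the promoter, the tile at -1000 was at 13.3% ± 3.72 in B cells and 0.13% ± 0.38 in T cells (adjusted p = 9.51e-06), while the tile at 0 was at 2.40% ± 4.19 and 1.18% ± 1.18 (adjusted p = 0.712).

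Only 2 of the 75 tested tiles of *Cd86* were called, 1 in each direction (1.33% each, beside 1.35% lower and 2.54% higher of all tiles). In *Cd86*, 60 of the 135 tiles were not tested for lack of CpGs or calls. The tile at -5000 was higher in B cells, at 69.6 to 95.0% against 14.3 to 50% (46.9 points, adjusted p = 0.0274). It held 3 CpGs, and only 5 libraries of each cell type had enough calls. The adjusted p was 0.196 with BS libraries alone and 0.118 with female libraries alone. With the exact permutation test over all libraries that had enough calls, the adjusted p was 0.0766, at a difference of mean levels of 49.7 points. The intronic tile at 30500 was lower in B cells, at 43.9 to 78.0% against 77.2 to 87.7% (-26.04 points, adjusted p = 0.000254), over 21 CpGs, with overlap.

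*Icosl* (ICOS ligand, chr10:78069302-78083913, plus strand) had a CpG-rich start that was unmethylated in both cell types, at 0.52% ± 0.61 and 0.41% ± 0.36 within 250 bp over 39 CpGs. Its promoter was at 4.42 to 8.92% in B cells (median 4.599%) and 5.50 to 9.49% in T cells (median 6.13%), with overlap (-1.52 points, adjusted p = 0.272, exact permutation p = 0.0569). A single tile of 30 was called, higher in B cells (3.33%, beside 2.54% of all tiles). It lay at 9000 over an annotated UTR, with 49.4 to 67.1% in B cells and 25.97 to 52.2% in T cells (22.9 points, adjusted p = 0.00285). There the libraries overlapped. With BS libraries alone the difference was 16.5 points (adjusted p = 0.465) and with male libraries alone 15.1 points (adjusted p = 0.555), both under the limit of 20 points. The adjusted p was 0.0758 with oxBS libraries alone, and the call was kept with female libraries alone. Over the 4 combinations of sex and assay the difference ran from 9.81 to 38.2 points.

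*Cd83* (chr13:43784775-43803132, plus strand) had a promoter near the unmethylated end in both cell types. It was at 6.55 to 14.6% in B cells (median 10.7%) and 9.63 to 14.3% in T cells (median 11.3%), with overlap (-1.04 points, adjusted p = 0.609, exact permutation p = 0.382). Of 34 tested tiles, 1 was called, lower in B cells (2.94%, beside 1.35% of all tiles). This tile at 6000 was at 13.6 to 69.2% against 48.4 to 90.9% (-30.5 points, adjusted p = 0.0442), over 4 CpGs with overlapping libraries. Its adjusted p was above 0.05 when any of 13 of the 16 libraries was left out. Below the limit, the tile at 4000 was higher in B cells, at 17.3% ± 5.67 and 3.89% ± 2.17 (adjusted p = 0.000875), and that at 1500 lower, at 0.90% ± 1.55 (n = 7) and 11.8% ± 6.87 (adjusted p = 0.00504).

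**Figure D3:**
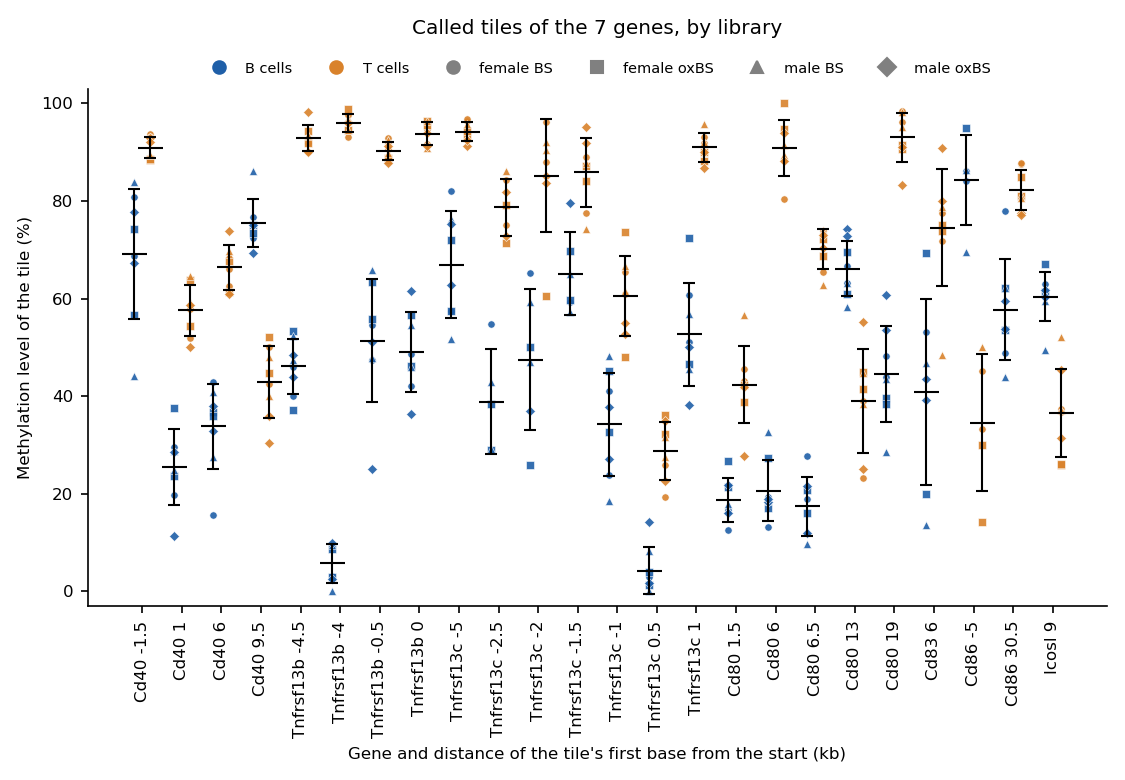
Methylation level in percent (y axis) of the 24 called tiles in each library, with the tiles named by gene and by the distance of their first base from the start in kb (x axis). Blue points are B cell and orange points T cell libraries, shapes give sex and assay, and bars the mean and SD. *Tnfrsf13b* at -4 kb has all B cell libraries at 9.86% or less and all T cell libraries at 93.0% or more, while *Cd83* at 6 kb and *Icosl* at 9 kb have overlapping points.

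**Figure D4:**
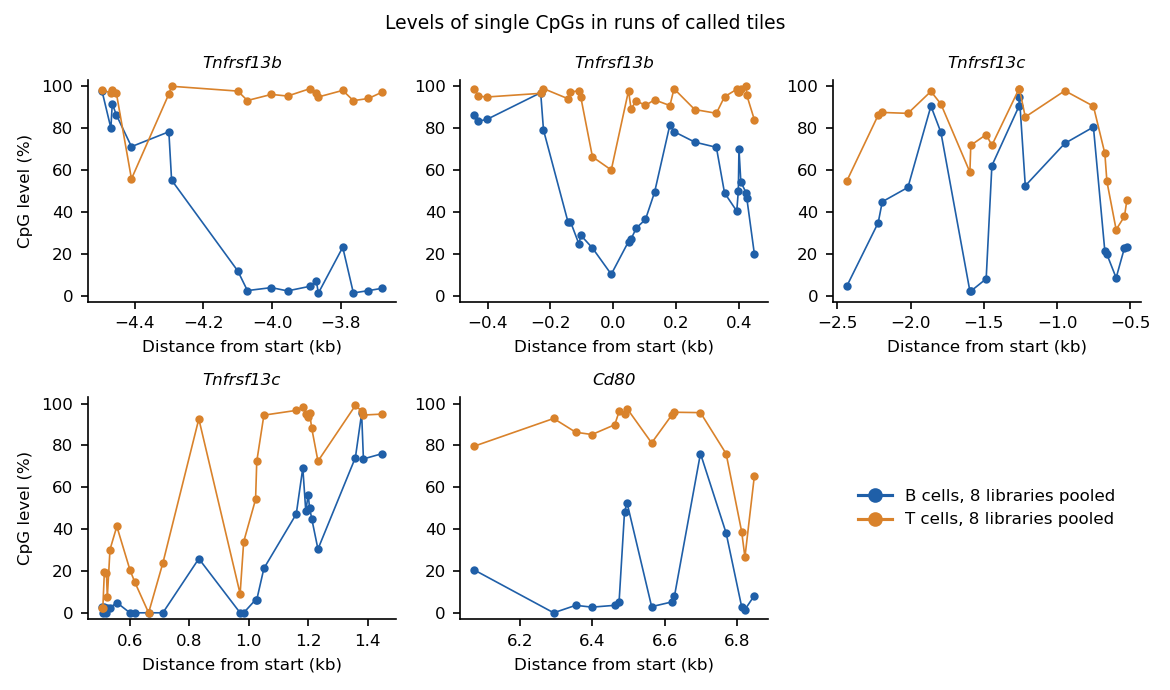
Levels of single CpGs in percent (y axis, calls pooled over 8 libraries per cell type) in the 5 runs of adjacent called tiles, by distance from the annotated start in kb (x axis). Blue is B cells and orange T cells. In the run upstream of *Tnfrsf13b*, 3 of the 10 CpGs of the tile at -4500 and 7 of the 8 of the tile at -4000 are below 20% in B cells. Around its start 1 of 28 is, and in *Cd80* 11 of 16 CpGs are below 20% in B cells.

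The B cell minus T cell difference was in the same direction in each combination of sex and assay that had values for the 19 tiles chosen by the rule for named tiles, and 17 of them had values in all 4 combinations. All 19 tiles were called over these same libraries, so agreement in direction within subsets is largely set by that choice and is no independent support. Each combination holds at most 2 libraries per cell type and was not tested on its own. At the *Tnfrsf13b* promoter the 4 differences lay between -34.7 and -29.3 points, at its tile at -4000 between -91.0 and -89.0 points, and at *Cd80* at 6000 between -75.2 and -65.0 points. The promoters of *Cd40*, *Tnfrsf13c* and *Cd86* also kept one direction, at -7.04 to -3.33, -11.3 to -5.51 and 3.96 to 9.86 points. Those of *Cd80*, *Cd83* and *Icosl* changed sign.

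**Figure D5:**
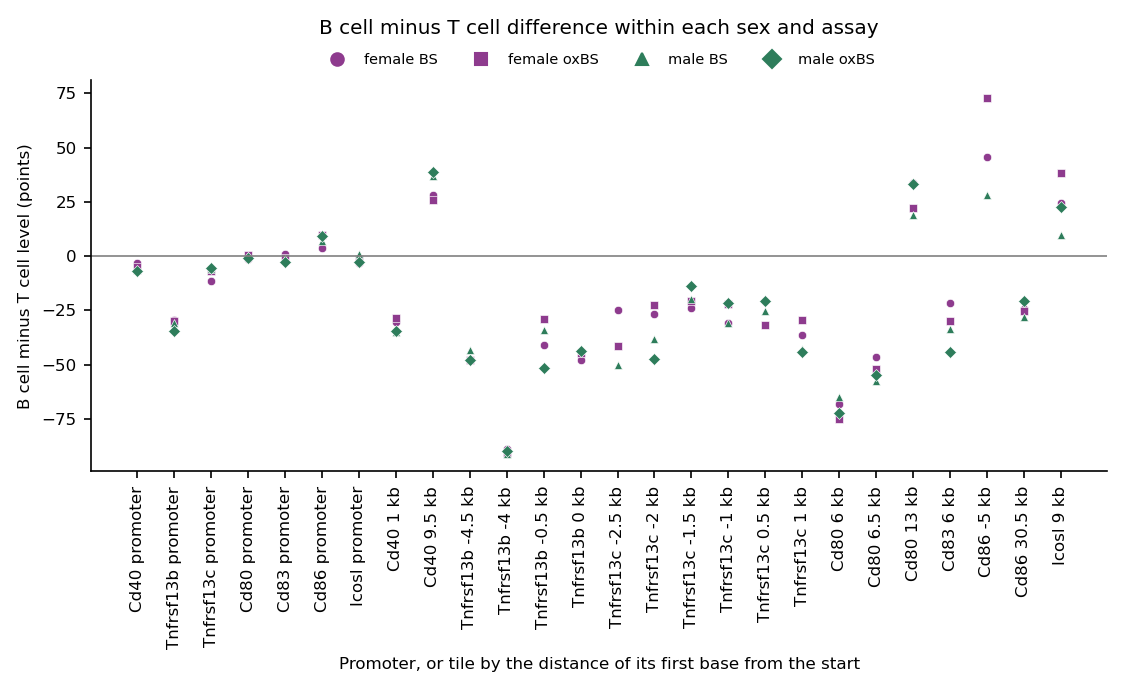
Difference between the mean B cell and mean T cell level in percentage points (y axis) within each sex and assay, for the 7 promoters and these 19 tiles (x axis, distance from the start). Colour and shape give sex and assay, and each point rests on 2 libraries per cell type, or on 1 in a cell type for some points of *Tnfrsf13c* at -2.5, -2 and -1.5 kb, *Cd83* at 6 kb and *Cd86* at -5 kb. Points of one tile lie on one side of 0, and spread most at *Cd86* -5 kb, which rests on 3 CpGs.

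Differences between sexes and between assays were examined in the same model. Of the promoters and tiles of the 7 genes, 0 were called between sexes by the quasi-binomial model, against 2.02% of all promoters and 0.124% of all tiles, and the smallest adjusted p was 0.643, at the *Cd80* promoter. All 7 genes are autosomal, and on autosomes only 10 of 20066 promoters and 4 of 1265065 tiles had an adjusted p under 0.05 for sex. At an unadjusted p under 0.05 there were 1 promoter and 8 tiles (2.62% of tiles), beside 6.66% of all promoters and 3.27% of all tiles. Between BS and oxBS 0 were called, as in all genes (0%), and 0 promoters and 17 tiles (5.57%) had an unadjusted p under 0.05, beside 5.89% of all promoters and 6.68% of all tiles. Further terms asked whether the B minus T difference itself varied with sex or assay. For these, 0 windows of the 7 genes had an adjusted p under 0.05, as in all genes (0%). An unadjusted p under 0.05 was seen in 10 tiles (3.28%) for sex and 13 tiles (4.26%) for assay, beside 2.76 and 5.67% of all tiles. It was seen in 0 of the 7 promoters for either term, beside 3.34% (sex) and 10.3% (assay) of all promoters. BS levels exceeded oxBS levels by a median of 0.446 points over the 305 tiles, and by 0.603 points over all tiles.

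Among 22 other genes of these pathways, 2 promoters were called, both of receptors or ligands on the T cell side and both higher in B cells. *Cd40lg* (CD40 ligand) was at 88.3% ± 3.82 in B cells and 29.1% ± 21.4 in T cells (51.5 points, adjusted p = 1.68e-05). *Cd40lg* is X-linked, and its T cell level was 48.5% ± 5.41 in female and 9.76% ± 6.21 in male libraries (n = 4 each). *Icos* (the receptor of ICOS ligand) was at 42.8% ± 10.6 in B cells and 11.96% ± 8.46 in T cells (32.1 points, adjusted p = 0.00308).

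Tiles of the other pathway genes were called higher in B cells in 73 of 1102 and lower in 21, that is 6.62 and 1.91%, beside 2.54 and 1.35% of all tiles. Of the 6 ligands and counter-receptors, tiles were called higher in B cells in 42 of 173 (24.3%) and lower in 3 (1.73%). *Cd28* had 20 tiles higher and 1 lower of 50, *Icos* 10 and 1 of 30. *Tnfrsf17* (BCMA, the other receptor of APRIL and BAFF) had a promoter methylated in both cell types (93.4% ± 1.92 and 91.5% ± 1.80, adjusted p = 0.213), with 3 of 16 tiles lower and 0 higher in B cells. Among 11 adaptors and genes of non-canonical NF-kB signalling 0 promoters were called by the quasi-binomial model, and 12 of 627 tiles were lower (1.91%) and 26 higher (4.15%). *Map3k14* (NIK, the kinase of that pathway) had 5 tiles in each direction of 88. The 4 other B7 family ligands had 3 tiles lower (1.05%) and 5 higher (1.75%) of 286.

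Motifs of factors known in lymphocytes were searched by their letters on both strands of the 24 called tiles, as a description. The octamer (ATTTGCAT) was in 1 of the 20 tiles lower in B cells, *Cd80* at 1500, and in 2.76% of 1274474 distinct full-length tested tiles of all genes. The same tile held the only NF-kB match (GGGA, any 2 bases, TTCC), found in 1.59% of all tiles. RUNX letters (TGTGGT) were in 4 of the 20 and in 3 of the 4 tiles higher in B cells, against 33.3% of all tiles. TCF or LEF letters (CTTTGAA) were in 4 of 20 and 2 of 4, against 11.2%. The EBF1 (TCCC, any 2 bases, GGGA), PU.1 (GAGGAAGT) and combined PU.1 and IRF (GGAA, any 2 bases, GAAA) letters were in none of the 24 and in 1.26, 3.17 and 4.69% of all tiles. The *Tnfrsf13b* tile at -4000 held only the RUNX letters.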

How the data were processed

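The authors deposited, for each library, counts of unmethylated and methylated calls per CpG with both strands combined, made with Trim Galore 0.6.0, Bismark 0.20.0 and SAMtools 1.3.1 on mm10 (GRCm38), keeping reads of mapping quality 10 or more. Groups (cell type, sex and assay, 2 libraries each) were taken from the labels. Rows at positions that are not CpGs of the assembly and rows outside the chromosomes were left out. Calls were pooled over windows of protein-coding genes (GENCODE vM21). The model was tested on simulated data in which each library was drawn independently. Added differences of 25 points were called in 50 of 50 promoters and 42 of 50 tiles. Of 20704 unchanged promoters none was called, and 3 had an adjusted p under 0.05 without the limit on the difference. Because simulated libraries were independent, this test cannot tell whether p-values are too small where libraries share a divided sample. A window needed at least 3 CpGs, and a library at least 20 calls over at least 3 covered CpGs. At least 5 libraries per cell type were required. The quasi-binomial model had cell type, sex and assay as terms and an F test with a dispersion of at least 1, and p-values were adjusted by Benjamini-Hochberg over all windows of a kind. Promoters were also compared by an exact permutation test over the 16 libraries. Adjusted over all promoters, its p was 0.00430 for *Tnfrsf13b*, 0.00701 for *Tnfrsf13c* and *Cd86* and 0.0149 for *Cd40*. For *Icosl*, *Cd83* and *Cd80* it was 0.200, 0.618 and 0.915. Levels in the text are means ± SD over libraries, and differences are of pooled calls. Intervals from counting were not used, since calls without molecular identifiers are not independent molecules. Tools were Python 3.11.15, NumPy 2.4.6, SciPy 1.17.1, pandas 2.3.3, R 4.3.3 and limma 3.58.1 (for alternatives). Alternatives changed the window sizes, the filters, the limit, the covariates, the test and the libraries used.

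All 7 genes were described with their promoters, the called tile with the largest difference in each direction, and every run of adjacent called tiles. The nearest promoters were taken by mean absolute difference over libraries, and pathway genes were named for a called promoter or as the 3 with most called tiles. Other tiles and genes given with values were chosen after their values were seen. The members and the lists of pathway, marker and motif were chosen with earlier results of these data known. Promoter sequences were taken by symbol from a set of RefSeq promoters (GRCm38.p6), in which 4 of the 7 genes were found, and tile sequences were read from the genome.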

Additional observations from a re-analysis of the deposited data

Results flagged for a closer look

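In 6 of the 52 groups of libraries examined, 1 library lay far from the others of its cell type by Dixon's criterion, which chance meets in about 1 group in 20. At the *Icosl* promoter, male BS library 1 was the highest B cell library at 8.92%, the next being at 6.20%. At the *Icosl* tile at 9000, male BS library 4 was the lowest B cell library at 49.4%, the next being at 59.5%. In *Cd40* at 9500, male BS library 1 was the highest B cell library at 86.2% over 29 calls, the next being at 76.7%. In *Tnfrsf13b* at -500, male oxBS library 3 was the lowest B cell library at 25% over 84 calls, the next being at 47.4%. Among T cell libraries, female oxBS library 14 was lowest in *Tnfrsf13c* at -2000, at 60.6% over 33 calls with the next at 83.7%, and male BS library 7 was lowest in *Cd83* at 6000, at 48.4% over 31 calls with the next at 71.9%.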

How the results depend on the processing

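No paired analysis was run, because the library numbers run from 1 to 16 and no number is shared between groups, and the labels do not tie consecutive numbers to a sample. A fit with the calls of consecutive BS and oxBS libraries summed was not run either. Leaving out 1 library at a time kept the number of called promoters of the 7 genes at 1, and moved their called tiles between 16 and 20 lower and 3 and 4 higher in B cells, all called promoters between 216 and 238, and all called tiles between 16240 and 17262 lower and 30486 and 32908 higher. Promoter differences then lay between -6.14 and -4.89 points for *Cd40*, -32.0 and -28.6 for *Tnfrsf13b*, -8.36 and -7.22 for *Tnfrsf13c*, -1.18 and 0.29 for *Cd80* (above 0 at 0.289 without male BS library 4 and 0.174 without male oxBS library 3 of B cells), -1.43 and -0.56 for *Cd83*, 6.75 and 8.27 for *Cd86*, and -2.07 and -1.10 for *Icosl*.

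With 4 against 4 libraries fewer windows were called. Called tiles of the 7 genes lower and higher in B cells numbered 10 and 0 of 291 with BS and 8 and 0 of 297 with oxBS libraries alone. They numbered 6 and 0 of 294 with male and 9 and 1 of 292 with female libraries. Over all genes, 6670 and 9555 tiles (0.551 and 0.789%) were called with BS and 6008 and 18954 (0.491 and 1.55%) with oxBS libraries. With male libraries these were 5509 and 10814 (0.455 and 0.894%), and with female libraries 5476 and 11205 (0.443 and 0.907%). All called promoters numbered 102 with BS, 190 with oxBS, 93 with male and 110 with female libraries (0.490, 0.911, 0.446 and 0.527% of those tested). Promoter differences with an adjusted p no longer under 0.05 were -5.12 (BS), -5.73 (oxBS), -6.62 (male) and -4.39 points (female) for *Cd40*, -8.99, -6.48, -6.35 and -9.04 for *Tnfrsf13c*, 5.61, 9.53, 7.95 and 6.81 for *Cd86*, and -32.4 for *Tnfrsf13b* in male libraries, where 0 of the 7 promoters was called. At the *Tnfrsf13b* tiles at -4500, -4000 and 0 and the *Cd80* tiles at 6000 and 6500 the adjusted p stayed under 0.05 in all 4 subsets. It was above 0.05 in all 4 at *Tnfrsf13c* -2000, -1500 and -1000, *Cd40* 9500, *Cd80* 13000 and *Cd83* 6000, in 3 at *Cd40* 1000, *Cd86* 30500, *Icosl* 9000 and *Tnfrsf13c* 500, in 2 at *Tnfrsf13b* -500 and *Tnfrsf13c* 1000, and in both subsets that gave a value at *Tnfrsf13c* -2500 and *Cd86* -5000.

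A limit of 10 points gave 610 promoters of all genes (2.92%). It gave 30290 tiles lower and 55170 higher in B cells (2.36 and 4.31%), and 28 and 9 of the 305 tiles of the 7 genes. A limit of 30 points gave 102 promoters (0.488%), 9598 and 19121 tiles (0.749 and 1.49%), and 13 and 2 tiles of the 7 genes. With 40 calls per library fewer tiles were tested (668905 of all genes and 169 of the 7 genes), of which 9743 and 16519 (1.46 and 2.47%) were called over all genes, and 15 and 1 of the 7 genes. Tiles of 1000 bp gave 9800 and 21260 (1.02 and 2.20%), and 11 and 2 of 204 for the 7 genes. A promoter of 2 kb either side left 0 of the 7 called and *Cd86* at 7.66 points with an adjusted p above 0.05, and one of 500 bp turned *Cd83* to 0.131 points. With 500 bp and 2 kb the difference was -2.02 and -14.5 points for *Tnfrsf13c*, -2.51 and -7.84 for *Cd40* and -41.6 and -19.2 for *Tnfrsf13b*, and it was -4.70 for *Cd80* and -3.84 for *Cd83* with 2 kb and -0.616 for *Icosl* with 500 bp. Keeping only CpGs with at least 5 calls left *Cd40* at -5.16 points with an adjusted p above 0.05, and limma on mean CpG fractions brought *Cd83* (-2.15) and *Icosl* (-2.11) under 0.05. The cause was not tested. Leaving out libraries 1 and 4 of B cells (male BS), an alternative chosen after seeing the data, gave 16 and 3 called tiles of 278 for the 7 genes. Over all tiles 1.31 and 2.53% were then called. This alternative also turned *Cd80* to 0.276 points and lost the call of *Cd83* at 6000. Without covariates, without a lower limit on dispersion, with limma on arcsine square root levels, with 10 calls per library, and with tiles of 250 bp or shifted by 250 bp, no promoter of the 7 genes changed its side of the threshold and no count moved by more than 1.5 times. No difference of the 19 tiles chosen by the rule for named tiles changed direction under the alternatives that gave it a value, which numbered 14 for *Cd86* at -5000, 19 for *Tnfrsf13c* at -2500 and 26 to 29 for the others. For *Cd86* at -5000, 6 of the 14 left out a library without a value there, so its difference of 46.9 points could not change. The 19 tiles were chosen by their differences over the same libraries, so this agreement is no independent support. The adjusted p of *Tnfrsf13c* at -1000 rose to 0.0504 with 40 calls per library. With the exact permutation test, 20 tiles of the 7 genes were called lower and 3 higher in B cells, and *Cd86* at -5000 had an adjusted p of 0.0766.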

Other observations

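In T cells, BS and oxBS libraries lay apart over called tiles of other genes. Over 22933 tiles called higher in B cells and informative in every library, the 4 T cell BS libraries had mean levels of 45.5, 45.5, 45.6 and 45.6% and the 4 oxBS libraries 35.7, 35.8, 35.8 and 35.8%. B cell libraries lay between 77.9 and 80.3% there. Over the 12806 tiles of other genes called lower in B cells, T cell BS libraries lay between 79.3 and 79.6% and oxBS libraries between 75.5 and 75.9%. Over the 8 T cell marker promoters, T cell BS libraries lay between 12.4 and 15.4% and oxBS libraries between 6.29 and 7.73%. Over the 3 such tiles of the 7 genes described here, T cell BS libraries lay between 36.7 and 48.4% and oxBS libraries between 30.8 and 43.6%, with overlap. No test was run on these means over many windows. For single windows, 0 promoters and 0 tiles of all genes were called between assays, and 0 had an adjusted p under 0.05 for a B minus T difference that varied with assay.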
